A study of Mus musculus with 2 samples.

Results

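This report describes 10 early response transcription factor genes in the mouse meninges, the membranes that wrap the brain: Fos, Fosb, Jun, Junb, Jund, Egr1, Atf3, Klf2, Klf4 and Klf6. They were taken by symbol, and each of the 10 was found once among the 32285 genes of both count matrices. The choice was made with earlier results of these data known. The Sham library came from a pool of 5 mice and the TBI library from another pool of 5 mice. All were wild-type male C57BL/6 mice (C57BL/6J in the study's methods) aged 10 weeks (10 to 12 in another label), and the dorsal meninges were taken 1 week after a Sham procedure or a mild closed-skull traumatic brain injury (TBI), away from the site of impact. The tissue was digested with collagenase VIII and DNase, live single cells were sorted, and their RNA was counted by droplet sequencing of transcript 3' ends, in which each captured molecule carries a unique molecular identifier (UMI).

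Early response genes need no new protein for their induction, and their transcripts rise within minutes of a stimulus and decay quickly. FOS and JUN proteins pair through leucine zippers to form the AP-1 factor, EGR1 is a zinc finger protein, and ATF3 is a stress-induced partner of the same zipper family. KLF2, KLF4 and KLF6 are Kruppel-like zinc finger proteins. KLF2 and KLF4 are known in endothelium as factors induced by laminar blood flow, and KLF2 is known in lymphocytes for maintaining quiescence and the receptors for recirculation. Early response genes are also known to be induced while tissue is being dissociated, so their level in isolated cells is a level in cells that have been through digestion and sorting.

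With 1 library per condition, no test between Sham and TBI was possible, and no difference given here has a replicate behind it. Intervals in parentheses are exact 95% intervals that cover counting error alone. They are too narrow for genes whose UMIs are bunched in few cells, as many of these were. After filtering, 2043 Sham cells held 7866611 UMIs and 3773 TBI cells held 13940740, with medians of 2764 and 2663 UMIs per cell. The libraries shared 20 barcodes, of which 14 were among the filtered cells and 1 had the same class in both. Cells fell into 27 clusters, 26 of which were named from markers and made up 19 classes, written with "-like". One cluster of 45 Sham and 102 TBI cells stayed unnamed. The members and other early genes were kept out of the clustering. Levels are CPM, the UMIs of a gene scaled to a common total (1e6) of UMIs in the class, and they compare 1 gene between classes or libraries, not 1 gene with another.

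Positions are those of the GENCODE vM21 annotation of the GRCm38 build. Fos occupies chr12:85473890-85477273 on the forward strand and Fosb chr7:19302696-19310051 on the reverse strand. Jun occupies chr4:95049034-95052222 (reverse), Junb chr8:84974484-84978718 (reverse) and Jund chr8:70698949-70700616 (forward). Atf3 occupies chr1:191170296-191218039 (reverse). Klf2 occupies chr8:72319033-72321656 (forward), Klf4 chr4:55527143-55532466 (reverse) and Klf6 chr13:5861482-5870394 (forward).

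Promoters of 4 members are shown, chosen by their values. Fos, Jun and Junb were higher after TBI in the 3 classes largest over both libraries together, and Klf2 was highest in endothelial-like cells. RefSeq promoters were matched for 9 of the 10 members, and each is given here 5' to 3' on the strand of its gene, upstream of the start. Capitals mark TGACG, the core of a CRE (Fos, Junb, Klf2), the TATA motif TATAAA (Fos), an EGR motif GCGGGGGCG (Klf2) and MEF2 sites (Jun, Klf2). The windows are chr12:85473640-85473889 for Fos, chr4:95052223-95052472 for Jun, chr8:84978749-84978998 for Junb and chr8:72318812-72319032 for Klf2 (221 bases, cut before the annotated gene start), in GRCm38.p6.
Fos: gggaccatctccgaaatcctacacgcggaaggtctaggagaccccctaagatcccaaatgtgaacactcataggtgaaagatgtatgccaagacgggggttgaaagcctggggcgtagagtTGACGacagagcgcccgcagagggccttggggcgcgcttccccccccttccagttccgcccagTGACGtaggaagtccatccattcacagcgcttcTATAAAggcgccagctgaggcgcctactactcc
Jun: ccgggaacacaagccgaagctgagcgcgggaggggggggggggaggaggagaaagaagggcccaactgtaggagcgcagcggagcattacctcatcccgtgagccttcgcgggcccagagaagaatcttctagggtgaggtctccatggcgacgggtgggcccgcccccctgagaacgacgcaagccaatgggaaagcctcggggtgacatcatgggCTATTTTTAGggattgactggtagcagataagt
Junb: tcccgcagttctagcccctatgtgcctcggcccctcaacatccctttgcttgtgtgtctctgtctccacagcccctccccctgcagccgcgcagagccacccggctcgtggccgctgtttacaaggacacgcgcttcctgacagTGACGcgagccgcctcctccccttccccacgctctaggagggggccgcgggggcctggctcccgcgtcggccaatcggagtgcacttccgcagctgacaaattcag
Klf2: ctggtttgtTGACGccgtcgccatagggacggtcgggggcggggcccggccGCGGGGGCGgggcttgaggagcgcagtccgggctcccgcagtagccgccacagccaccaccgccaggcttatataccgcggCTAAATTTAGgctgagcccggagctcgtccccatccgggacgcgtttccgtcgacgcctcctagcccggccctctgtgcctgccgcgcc

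Each motif was searched on both strands in the 250 bases before the RefSeq start of 32851 promoters. These starts are not always those of the positions given above. The whole Atf3 window lies inside the annotated gene. The Jund window, chr8:70697489-70697738, ends well short of the annotated start at 70698949. TGACG was present in 6 of the 9 member promoters (Fos, Fosb, Junb, Atf3, Klf2 and Klf4) and in 17.8% of all promoters. The full CRE TGACGTCA, which contains TGACG, was in none of the 9 and in 1.55% of all. A MEF2 site was present in Jun, Atf3 and Klf2, against 2.92% of all promoters, and the EGR motif in Fosb, Klf2 and Klf4, against 2.57%. TATAAA was present in Fos and in 12.4% of all promoters. The AP-1 motif (TGACTCA or TGAGTCA, 4.46% of all), the CArG box (1.47%) and the KLF motif CCACACCC (3.20%) were in none of the 9. A match is a match of letters, and no match says that these letters were not in this window.

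The 10 genes had different homes among the 19 classes. Fos and Junb were highest in neutrophil-like cells. Fosb and Jun were highest in the class named pineal gland-like, but mostly in cells of it that a finer clustering set apart from its pineal gland-like cells, and Egr1 was high in both classes. Klf2 and Klf4 were highest in endothelial-like cells and Klf6 in migratory dendritic-like and neutrophil-like cells. No class stood apart for Atf3 or for Jund. Jund, like Jun and Junb, was present in every class in both libraries. Choroid plexus-like cells held at most 33.0 CPM of any member but Jund.

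Fos, the DNA-binding partner of the JUN proteins, stood at 1995 CPM in Sham and 1791 CPM in TBI neutrophil-like cells. The next class, pineal gland-like cells, had 466 and 576 CPM, so the 2 libraries of the first class lay apart from every other value. Macrophage-like cells followed with 138 and 198 CPM, and their range overlapped that of pericyte-like cells at 163 and 137 CPM. No Fos UMI was found in migratory dendritic-like or gamma-delta or Th17-like cells of either library. Of the 18 neighbouring pairs in the order of classes, 12 overlapped between libraries.

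The neutrophil-like level rests on 16 Sham and 26 TBI cells, which carried 92 and 166 Fos UMIs. The class was named from markers such as the calprotectin gene S100a8, at 128203 CPM there and 12 CPM in other cells. Fos was detected in 68.8% (41.3 to 89.0) of its Sham cells and 80.8% (60.6 to 93.4) of its TBI cells. The highest 10% of these cells, rounded up to a whole cell, held 31.5% and 30.7% of its Fos UMIs, more than an even spread would give. In macrophage-like cells the highest 10% held 78.3% and 66.4%, with 212 Fos UMIs in 335 Sham and 691 in 719 TBI cells. With so few UMIs per cell, counting alone bunches them, so the 2 classes are not compared in this.

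Fosb, a relative of Fos, reached 499 and 420 CPM in pineal gland-like cells and at most 195 CPM elsewhere. It had no UMI in 4 classes in either library. Jun, the founding JUN gene, was also highest in pineal gland-like cells, at 599 and 874 CPM. Endothelial-like cells came just below with 427 and 572 CPM and Schwann-like cells with 538 and 542 CPM. T cell-like cells, at 12.6 and 38.4 CPM, were among the lowest.

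The pineal gland-like class was mixed. At the finer clustering resolution of 1.6, 13 of its 39 Sham and 31 of its 103 TBI cells stayed pineal gland-like, and these held 5 of its 244 Jun UMIs, 4 of 165 Fos UMIs and none of 130 Fosb UMIs. A cluster of 9 Sham and 47 TBI cells led by Cspg5 and Cntnap2, which the marker rule put with the choroid plexus-like class, held 209 Jun, 141 Fos and 127 Fosb UMIs. With at most 10% mitochondrial UMIs, 13 Sham and 24 TBI cells were pineal gland-like, with 3 Jun UMIs. The levels given here for the class are therefore those of the mixture. As a whole it carried Tph1, an enzyme gene of serotonin synthesis, at 826 CPM against 1 CPM in other cells, and 7 of its 8 listed markers were detected. Aanat, the enzyme gene that gives melatonin synthesis its rhythm, had no UMI. The 8 choroid plexus markers summed to 42006 CPM in its Sham cells and 4549 CPM in its TBI cells, and only 16 Sham and 68 TBI cells reached 1000 UMIs. Its 6 listed mast cell markers summed to 33.3 and 3540 CPM. The part of these differences in the values of the class was not tested.

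Junb, a JUN protein gene abundant in immune cells, followed Fos with 1799 and 1726 CPM in neutrophil-like cells. The highest value in any other class was 656 CPM, in TBI pineal gland-like cells. ILC2- or Th2-like cells had 628 and 637 CPM and migratory dendritic-like cells 564 and 522 CPM. Lymphoid classes held Junb with little Fos. T cell-like cells had Junb at 291 and 302 CPM and Fos at 3.61 and 13.6 CPM. Choroid plexus-like cells had the lowest Junb, 15.0 and 11.4 CPM.

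Jund, the JUN gene least dependent on stimulation, ranged less. It was highest in neutrophil-like cells, at 477 CPM in Sham and 281 CPM in TBI, but no class stood apart, and 16 of 18 neighbouring pairs overlapped. Immature B cell-like cells had 413 and 335 CPM. Choroid plexus-like cells had 81.0 and 72.4 CPM. Under the TBI library alone the neutrophil-like class fell to rank 6.

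Egr1, a growth factor-responsive factor, stood at 366 and 362 CPM in pineal gland-like cells and 434 and 216 CPM in neutrophil-like cells. Fibroblast-like cells came next with 136 and 216 CPM, with the TBI value just under that of TBI neutrophil-like cells. Endothelial-like cells had 118 and 151 CPM. Among immune classes other than the neutrophil-like one, the highest value was 78.2 CPM, in TBI B cell-like cells.

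Atf3, the stress-induced member, had 544 UMIs in all filtered cells. Monocyte-like cells had 67.3 and 95.4 CPM, dendritic-like cells 37.3 and 57.9 CPM and macrophage-like cells 46.8 and 55.5 CPM. Migratory dendritic-like cells had 37.6 and 112 CPM. No class stood apart. Endothelial-like cells had 6.49 and 8.34 CPM.

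Klf2 was highest in endothelial-like cells, at 1578 and 1474 CPM, above every other class in both libraries. B cell-like cells came next with 1223 and 1036 CPM. NK-like cells had 866 and 497 CPM, immature B cell-like cells 612 and 604 CPM, and monocyte-like cells 523 and 514 CPM. T cell-like cells had less, at 240 and 194 CPM. Fos in B cell-like cells, by contrast with its level in macrophage-like cells, was at 9.77 and 6.11 CPM.

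Klf4, the closest relative of Klf2 in endothelium, was at 349 and 361 CPM in endothelial-like cells. It was at 161 and 143 CPM in monocyte-like cells and at 2.66 and 4.89 CPM in B cell-like cells, where Klf2 was abundant. NK-like cells had no Klf4 UMI in either library. Klf6, a widely used family member, was at 392 and 351 CPM in migratory dendritic-like cells and 369 and 345 CPM in neutrophil-like cells. The next highest value, 279 CPM, was in Sham pericyte-like cells.

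**Figure D1:**
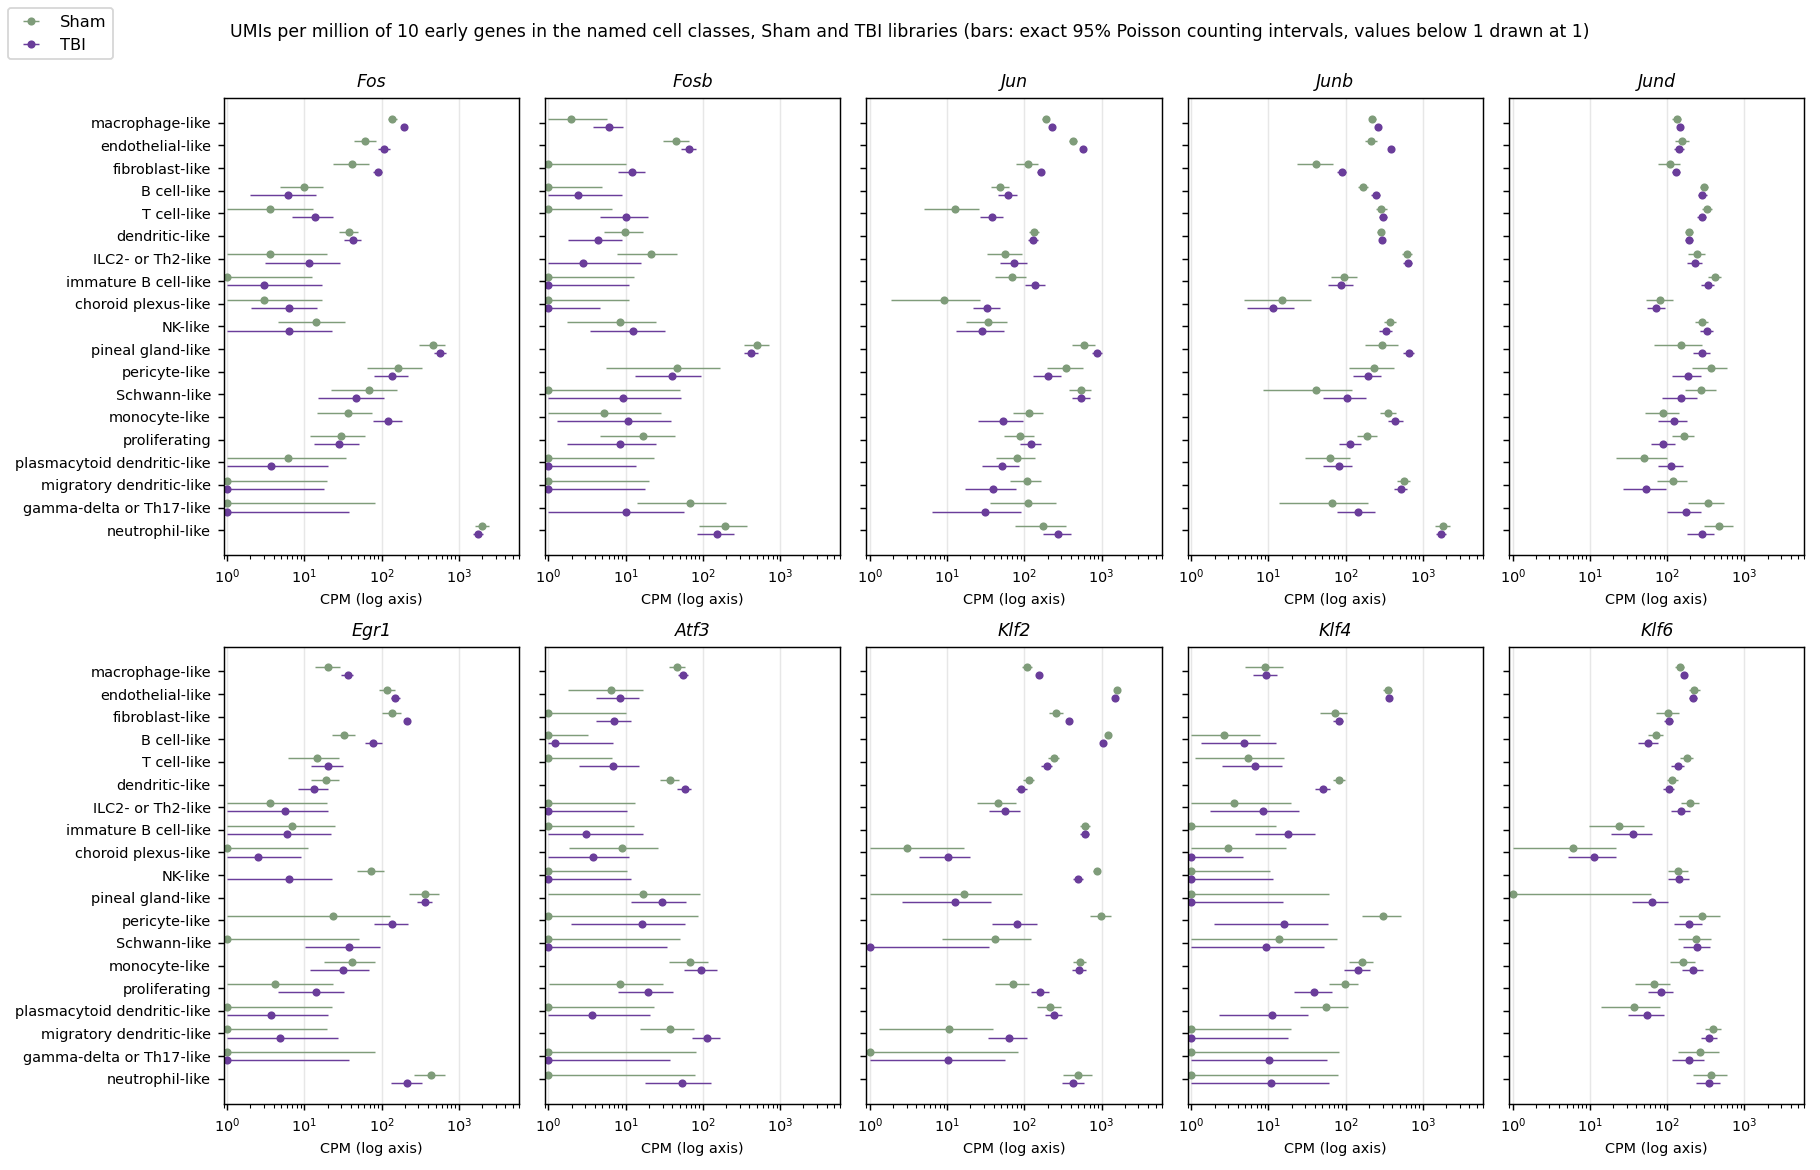
Levels of the 10 genes (CPM, log axis) in the 19 named classes, 1 panel per gene, with Sham in green and TBI in purple. Points are sums over the cells of a class in 1 library, bars are exact 95% Poisson counting intervals, and values below 1 are drawn at 1. Fos and Junb lie farthest right in neutrophil-like cells, near 1995 and 1799 CPM in Sham, and Klf2 in endothelial-like cells, at 1578 CPM.

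Across classes, the changes from Sham to TBI went both ways. Of 190 gene and class pairs, 116 had at least 20 UMIs over both libraries, and 61 of these were higher and 55 lower in TBI. The median log2 ratio of TBI over Sham over the 116 pairs was 0.02. At least 2-fold higher were 12 pairs (10.3%), against 3.86% of all gene and class pairs, and at least 2-fold lower were 9 pairs (7.76%), against 2.65%. The 12 include Fosb in fibroblast-like cells, which had no Sham UMI and falls below 2-fold at its bound, leaving 11. Without the cell richest in the gene in each library, 16 of 100 pairs were at least 2-fold higher, against 4.99% of all pairs, and 2 were at least 2-fold lower, against 1.87%. That recount was chosen after seeing the data. It tilts ratios upward, since it takes a larger part from the library with fewer cells of a class, mostly Sham.

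Several large ratios rested on single cells. Klf2 in pericyte-like cells was 978 CPM in Sham and 80.5 CPM in TBI, but 41 of its 42 Sham UMIs came from 1 cell, and the log2 ratio of -3.55 became 0.29 without the richest cell of each library. The class had 23 Sham and 72 TBI cells, and 13 of its 13 Sham Klf4 UMIs also came from 1 cell. Egr1 in NK-like cells was 74.1 CPM in Sham and 6.29 CPM in TBI, and 19 of the 26 Sham UMIs came from 1 cell. In T cell-like cells Jun was 12.6 and 38.4 CPM, with 12 of 34 TBI UMIs in 1 cell. Its ratio was -0.11 in cells thinned to 1000 UMIs, but on 8 UMIs in all, too few to read a direction from.

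The 3 classes largest over both libraries together were macrophage-like (335 Sham and 719 TBI cells), endothelial-like (308 and 579) and fibroblast-like cells (119 and 757). In these classes Fos, Jun and Junb were each higher in TBI. Egr1 also had ratios above 0, with an interval that included no difference in endothelial-like cells. Klf2 was higher in TBI in macrophage-like and fibroblast-like cells and close to level in endothelial-like cells. The number of members higher in TBI by any amount was 9 of 10 in macrophage-like cells (against 53% of all genes), 6 of 9 in endothelial-like cells (51.8%) and 9 of 9 in fibroblast-like cells (46.7%). The median log2 ratio of the members was 0.28, 0.34 and 0.55, beside 0.02, 0.02 and -0.04 over all genes.

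Most of these differences were under 2-fold. In macrophage-like cells 1 of 10 members was at least 2-fold higher (Fosb, on 3 and 21 UMIs, with a log2 ratio of 1.43 and an interval of -0.12 to 4.01 that included no difference), against 2.53% of all genes, and none was 2-fold lower, against 1.1%. In endothelial-like cells none of 9 was 2-fold higher or lower, against 3.31% and 1.11% of all genes. In cells thinned to 1000 UMIs, the log2 ratios of Fos (1.03) and Junb (1.02) there were just past 2-fold, with Fos in 12 of 239 thinned Sham cells. In fibroblast-like cells 3 of 9 were at least 2-fold higher (Fos, Fosb and Junb), against 4.89%, and none lower, against 3.24%. Fosb had 27 TBI UMIs against 0 in fibroblast-like cells, at least 1.45-fold higher against a floor of 3 Sham counts, and the lower exact limit of its log2 ratio, which also counts the error of the TBI UMIs, was 0.14.

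In macrophage-like cells Fos was 138 CPM in Sham and 198 CPM in TBI, a log2 ratio of 0.52 (0.30 to 0.75). Klf2 was 109 and 154 CPM, with a ratio of 0.50 (0.25 to 0.76). Jun was 188 and 230 CPM (0.29, 0.09 to 0.49) and Junb 220 and 265 CPM (0.27, 0.09 to 0.45). For Jund (0.16), Atf3 (0.24), Klf6 (0.16) and Klf4 (-0.02) the counting interval included no difference. Egr1 was 20.1 and 36.3 CPM, a ratio of 0.83 (0.27 to 1.47), which was 0.06 in cells thinned to 1000 UMIs and 1.84 as a mean over cells. Only 4 of 253 thinned Sham cells had Egr1.

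The macrophage-like class joined 3 clusters with different values, and the difference between them was not tested. The cluster led by Folr2, the gene of a folate receptor, had Klf2 at 109 and 211 CPM (0.94, 0.56 to 1.35), and Fos was 129 and 203 CPM there. The cluster led by Fcgr4, an IgG receptor gene, had Klf2 at 116 and 106 CPM (-0.14, -0.50 to 0.24) but Jun at 196 and 301 CPM (0.61, 0.36 to 0.88). In the Folr2 cluster Jun was 201 and 177 CPM (-0.19, -0.50 to 0.13). In the cluster led by the chemokine gene Ccl8, whose Sham cells had a median of 815 UMIs, Junb was 39.3 and 185 CPM on 5 and 37 UMIs.

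In endothelial-like cells Junb showed the largest ratio, with 211 CPM in Sham and 391 CPM in TBI (0.88, 0.61 to 1.18). Fos was 61.7 and 108 CPM (0.79, 0.28 to 1.36) and Jun 427 and 572 CPM (0.42, 0.22 to 0.63). Egr1 was 118 and 151 CPM (0.34, -0.05 to 0.76) and Fosb 45.5 and 65.2 CPM (0.50, -0.11 to 1.19). Of the Kruppel-like genes, Klf2 gave -0.10 (-0.21 to 0.01), Klf4 0.05 (-0.19 to 0.29) and Klf6 -0.07 (-0.37 to 0.23). The interval of Klf2 lies below that of Jun, a comparison of 2 counting intervals within the same pair of libraries. Atf3 had 4 and 11 UMIs and was not counted among the 9.

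The ratio of Junb was largest in 1 of the 4 endothelial-like clusters. The cluster led by Vwf, the gene of von Willebrand factor, held 58 Sham and 146 TBI cells, and Junb was 266 and 602 CPM there (1.16, 0.64 to 1.76), Jun 341 and 589 CPM (0.77, 0.30 to 1.31) and Fos 108 and 206 CPM (0.88, 0.07 to 1.90). Jund went the other way, from 275 to 158 CPM (-0.80, -1.43 to -0.13). Egr1 was higher in this cluster than in the other 3 in both libraries, at 408 and 378 CPM, and near level between them. In the larger cluster led by Gpihbp1, a capillary gene for lipoprotein lipase anchoring, Junb was 156 and 206 CPM (0.39, -0.05 to 0.87). Weighted over the 4 clusters, the class ratio of Junb was 0.64 and that of Egr1 0.00.

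Klf2 had ratios of both signs among the endothelial-like clusters. It was 1363 and 1207 CPM in the Gpihbp1 cluster (-0.18, -0.34 to -0.01) and 1589 and 1608 CPM in the Vwf cluster (0.01, -0.22 to 0.26). The cluster led by Sema3g, a semaphorin gene of arterial endothelium, had 1686 and 2115 CPM (0.32, 0.06 to 0.60). The smallest cluster, led by the amino acid transporter gene Slc38a5, had 3746 and 1672 CPM (-1.17, -1.51 to -0.82) on 13 Sham and 42 TBI cells. Klf4 in this last cluster was 592 and 218 CPM (-1.45, -2.37 to -0.48), from 18 and 25 UMIs. The difference between clusters was not tested. The names of the Vwf, Sema3g and Slc38a5 clusters rest on a naming rule chosen after the clusters were seen, and without these 3 the class ratios were 0.39 for Junb, 0.31 for Fos and 0.25 for Jun.

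**Figure D2:**
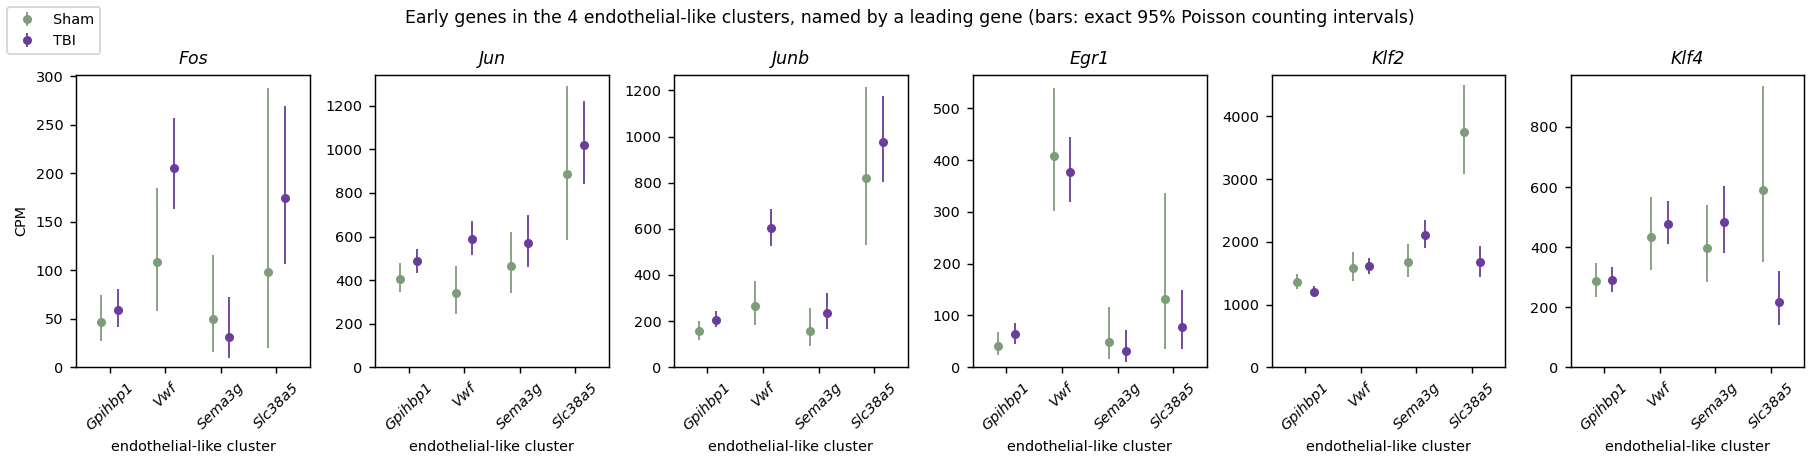
Levels (CPM) of 6 early genes in the 4 endothelial-like clusters, each named by a leading gene, with Sham in green and TBI in purple. Bars are exact 95% Poisson counting intervals. Junb in the Vwf cluster moves from 266 to 602 CPM without overlap of the bars, and Klf2 in the Slc38a5 cluster from 3746 to 1672 CPM.

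In fibroblast-like cells Fos was 41.5 CPM in Sham and 89.3 CPM in TBI (1.06, 0.35 to 1.97), and Junb 41.5 and 88.8 CPM (1.05, 0.34 to 1.96), each on 15 Sham UMIs. Egr1 was 136 and 216 CPM (0.66, 0.24 to 1.12), Klf2 260 and 383 CPM (0.55, 0.25 to 0.88) and Jun 111 and 162 CPM (0.54, 0.08 to 1.06). Jund (0.27), Klf4 (0.14) and Klf6 (0.03) had intervals that included no difference. The Sham class is small, with 119 cells. In cells thinned to 1000 UMIs the ratio of Fos was 0.19, of Junb 0.48 and of Egr1 1.05. Only 5 of the 86 thinned Sham cells had Fos and 7 had Egr1.

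The fibroblast-like class joined 2 clusters. The cluster led by Ptgds, the gene of prostaglandin D synthase, had Egr1 at 181 and 219 CPM and Klf2 at 293 and 427 CPM (0.54, 0.21 to 0.90). The cluster led by Snhg11, a noncoding RNA gene, had no Egr1 UMI in its 53 Sham cells and 122 in its 308 TBI cells, at least 6.27-fold higher against a floor of 3 Sham counts, with a lower exact limit of 2.33 on the log2 scale. Klf4 in it was 0 against 57 UMIs, at least 2.93-fold higher by the same floor, with a lower limit of 1.21. Fos was 32.8 and 159 CPM (2.06, 0.68 to 4.58) on 3 and 94 UMIs. Without this cluster, which was also named by the rule chosen later, the class ratio was 0.48 for Fos, 0.83 for Junb and -0.38 for Klf4.

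**Figure D3:**
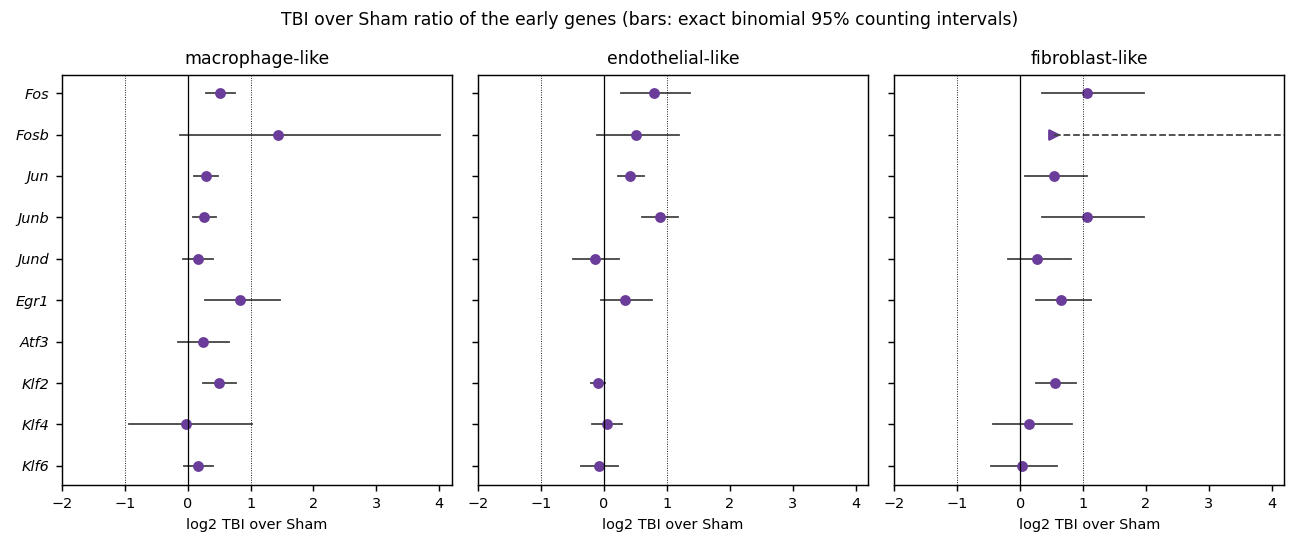
TBI over Sham ratio (log2 of CPM) of the early genes in macrophage-like, endothelial-like and fibroblast-like cells. Points are ratios, bars are exact binomial 95% counting intervals, the line at 0 is no difference, a triangle is the lower bound of a gene with no Sham UMI, and genes under 20 UMIs are not drawn. Fos and Junb lie right of 0 in each panel, and Klf2 lies at -0.10 in endothelial-like cells.

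Markers of other cell types also differed between the libraries in these classes. In endothelial-like cells the 14 macrophage markers summed to 90.9 CPM in Sham and 413 CPM in TBI (14 of 14 higher), the 13 fibroblast markers to 1477 and 3088 CPM (13 of 13) and the 12 B cell markers to 22.7 and 240 CPM (11 of 12, with Fcer2a at 0). In fibroblast-like cells the macrophage markers summed to 188 and 683 CPM (14 of 14), while the 14 endothelial markers summed to 600 and 317 CPM. In macrophage-like cells the fibroblast markers summed to 276 and 436 CPM (12 of 13). With predicted doublets removed (1.62% of Sham and 3.02% of TBI cells), endothelial-like Junb was 0.84 and Fos 0.82, fibroblast-like Fos 0.94 and Junb 0.83 and macrophage-like Fos 0.60. The 2 doublet shares were set in advance from the number of cells in each library and are not measured rates. Hemoglobin genes summed to 2260 and 378 CPM in endothelial-like and 1802 and 224 CPM in macrophage-like cells. The part of these markers in the ratios was not tested.

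Heat shock genes are also known to respond to tissue handling, and most were lower in TBI in 2 of the 3 classes. In endothelial-like cells 10 of 12 were lower in TBI and 2 were at least 2-fold lower, with a median log2 ratio of -0.36. Hspa1a, an inducible chaperone gene, was 269 and 132 CPM, Hsp90aa1 362 and 208 CPM and Hspb1 1761 and 1079 CPM. In macrophage-like cells 9 of 12 were lower (median -0.16), and in fibroblast-like cells 6 of 11 were higher (median 0.00). The part of tissue handling in the values of either list was not tested.

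Other early response genes had ratios of both signs. In endothelial-like cells 12 of the 23 measured were higher and 11 lower in TBI (median 0.02), and 1 was at least 2-fold higher. Zfp36, which encodes a protein that destabilises inflammatory transcripts, was 92.5 and 189 CPM (1.02, 0.61 to 1.47), and Nr4a1, an orphan nuclear receptor gene, 187 and 293 CPM (0.65, 0.35 to 0.97). Ccn1, a matrix protein gene induced by serum, was 94.2 and 47.8 CPM (-0.98, -1.52 to -0.44). In fibroblast-like cells 13 of 21 were higher (median 0.15), among them Nr4a1 at 105 and 223 CPM and the phosphatase gene Dusp1 at 99.6 and 183 CPM. In macrophage-like cells 15 of 24 were higher (median 0.07), with Ier3 at 37.7 and 63.5 CPM, and Nfkbiz, an inhibitor of NF-kB family gene, at 55.9 and 38.0 CPM.

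Partner genes showed a like mixture. Of the 9 measured AP-1 and bZIP partners in macrophage-like cells, 8 were higher in TBI (median 0.25), with Fosl2 at 27.3 and 49.8 CPM (0.85, 0.37 to 1.39) and Batf3 at 61.7 and 80.4 CPM. In endothelial-like cells 6 of 9 were higher, with a median of 0.17. In fibroblast-like cells 5 of 5 were lower, with a median of -0.15. Among upstream factors, such as the SRF, ELK, CREB and MEF2 genes, 9 of 11 were lower in endothelial-like cells (median -0.11) and 9 of 12 higher in macrophage-like cells (median 0.08).

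Other Kruppel-like genes and targets linked to KLF2 and KLF4 were also followed. In endothelial-like cells 4 of 7 other KLF genes were lower in TBI (median -0.35), with Klf3 at 367 and 265 CPM (-0.47, -0.71 to -0.22) and Klf13 at 188 and 137 CPM. Of 4 measured linked genes, S1pr1, the sphingosine-1-phosphate receptor gene, was 479 and 429 CPM, Thbd, which encodes thrombomodulin, 393 and 369 CPM, and Vcam1, an adhesion molecule gene, 151 and 180 CPM, and none was 2-fold apart. In fibroblast-like cells 3 of 3 were lower, with Vcam1 at 85.8 and 45.1 CPM (-0.94). The 1 gene at least 2-fold lower was S1pr1, on 21 and 44 UMIs (-1.58, -2.35 to -0.74), named after its values were seen.

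Among lymphocytes, Klf2 was lower in TBI in B cell-like and NK-like cells. It was 1223 and 1036 CPM in B cell-like cells (-0.24, -0.36 to -0.11) and 866 and 497 CPM in NK-like cells (-0.80, -1.09 to -0.52). In T cell-like cells it was 240 and 194 CPM (-0.31, -0.64 to 0.03), an interval that included no difference. Junb in B cell-like cells was 170 and 244 CPM (0.53, 0.23 to 0.82), and Egr1 32.9 and 78.2 CPM (1.24, 0.65 to 1.88), with 16 of its 64 TBI UMIs in 1 cell. Of the 5 linked genes measured in B cell-like cells 2 were higher and 3 lower (median -0.02), with Itgb7, an integrin gene, at 54.2 and 83.1 CPM (0.62, 0.10 to 1.14) and S1pr1 at 161 and 142 CPM (-0.18, -0.53 to 0.16).

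Other markers also differed between the libraries in both classes, some lower and some higher in TBI. In NK-like cells the 11 NK markers summed to 15488 CPM in Sham and 12198 CPM in TBI (0 of 11 higher), the 13 fibroblast markers to 37.0 and 497 CPM (12 of 13) and the 14 macrophage markers to 37.0 and 151 CPM (12 of 14, with C3ar1 and Ccl8 at 0). In B cell-like cells the fibroblast markers summed to 27.5 and 279 CPM (13 of 13) and the hemoglobin genes to 1728 and 343 CPM. Their part in the Klf2 ratios was not tested.

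To compare shares of cells at equal depth, each cell was thinned to 1000 UMIs, which kept 1655 Sham and 3234 TBI cells and left out 388 and 539. In endothelial-like cells Jun was then found in 21.8% (16.7 to 27.5) of Sham and 34.0% (29.7 to 38.4) of TBI cells, and Junb in 14.6% (10.4 to 19.8) and 22.7% (19.0 to 26.7). Without thinning the shares were 35.7% and 48.0% for Jun and 23.4% and 34.7% for Junb. Klf2 was found in 67.4% (61.0 to 73.3) and 63.3% (58.8 to 67.7). In the Vwf cluster Jun was found in 12.5% (4.19 to 26.8) of 40 Sham cells and 38.7% (29.9 to 48.0) of 119 TBI cells, and Junb in 17.5% (7.34 to 32.8) and 35.3% (26.8 to 44.6).

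Thinned shares in the other large classes lay closer together. In macrophage-like cells Fos was found in 9.09% (5.85 to 13.3) of Sham and 12.2% (9.75 to 15.0) of TBI cells, and Junb in 13.4% (9.49 to 18.3) and 16.5% (13.7 to 19.6). The unthinned shares of Fos were 21.5% and 30.0%, in cells with medians of 2973 and 4424 UMIs. In fibroblast-like cells Egr1 was found in 8.14% (3.34 to 16.1) and 13.0% (10.5 to 15.8). Fos there was found in 5.81% (1.91 to 13.0) and 3.32% (2.09 to 4.98), against the direction of its CPM, so no order is read from it. In B cell-like cells Klf2 was in 64.9% and 59.8%, and in NK-like cells in 55.1% and 33.3%.

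Free RNA can add to such shares, and its part was not tested. Choroid plexus-like cells had thinned shares of 0% or up to 1.85% for every member but Jund, at 7.41% of 54 Sham and 8.55% of 117 TBI cells, and their medians of 3000 and 3542 UMIs were above those of endothelial-like cells, 1817.5 and 1984. Barcodes dominated by hemoglobin, 562 in Sham and 391 in TBI, gave 0 to 55.1 CPM of their nonhemoglobin UMIs for 9 members. Jun was at 9.91 CPM in Sham and 55.1 CPM in TBI (3 and 9 UMIs) and Junb at 9.91 and 36.7 CPM (3 and 6). Klf2 was at 26.4 and 49.0 CPM (8 and 8). Egr1 (1 and 2), Klf4 (0 and 2) and Klf6 (3 and 4) also had higher CPM in TBI, on too few UMIs to read a direction from. Fos was at 6.61 and 6.12 CPM (2 and 1), and Fosb and Atf3 had no UMI. Jund was at 360 and 263 CPM there, 177% and 153% of its level in filtered cells.

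**Figure D4:**
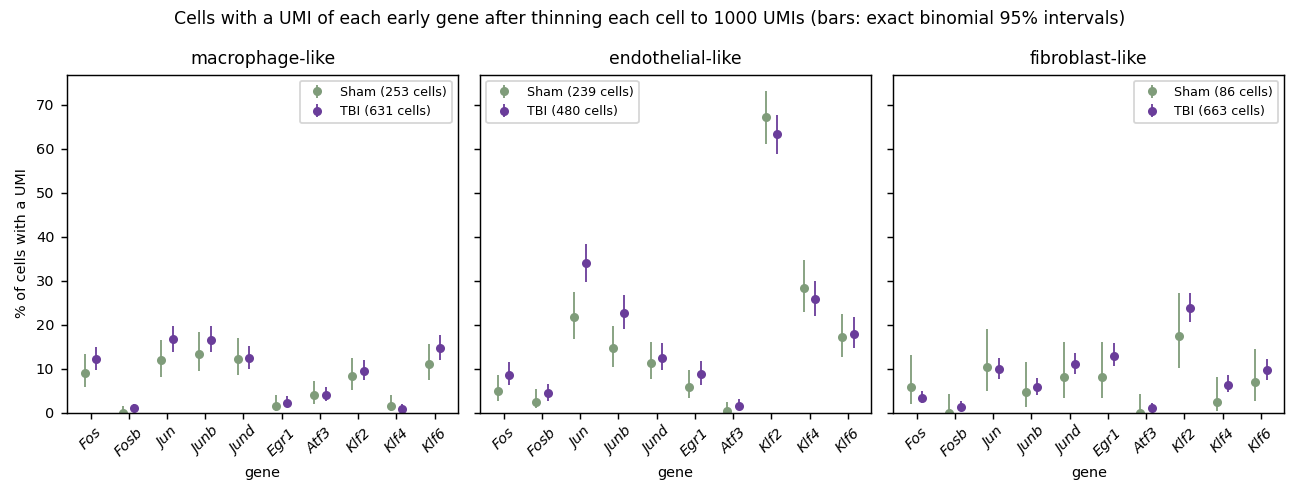
Share of cells (%) with a UMI of each early gene after thinning each cell to 1000 UMIs, in macrophage-like, endothelial-like and fibroblast-like cells, with Sham in green and TBI in purple. Bars are exact binomial 95% intervals. In endothelial-like cells Jun moves from 21.8% to 34.0% and Junb from 14.6% to 22.7%, while Klf2 is at 67.4% and 63.3%.

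Junb, Egr1 and Fosb were found more often in cells with Fos than in cells without it in the mixed pineal gland-like class. With both libraries joined and cells thinned, Junb had a UMI in 76.2% of the 21 pineal gland-like cells with Fos and in 6.35% of the 63 without it. Egr1 was in 71.4% against 6.35% and Fosb in 61.9% against 3.17%. In neutrophil-like cells Junb was in 80.0% of 25 cells with Fos and 14.3% of 14 without. All other members but Klf4 were also more frequent with Fos in that class. Klf6 was in 56.0% and 7.14%, Klf2 in 48.0% and 7.14% and Jund in 52.0% and 0%. The Fos, Junb and Egr1 UMIs of the pineal gland-like class lay in a minority of its cells. At the finer resolution, its cluster led by Cspg5 held 141 of the 165 Fos and 135 of the 174 Junb UMIs. That cluster also held 89 of the 108 Egr1 and 127 of the 130 Fosb UMIs. The part of this mixture in the shares was not tested.

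Shares were lower in the large classes. In endothelial-like cells Junb was in 41.5% of 53 cells with Fos and 18.3% of 666 without, and Egr1 in 24.5% and 6.46%. In macrophage-like cells Junb was in 35.0% of 100 cells with Fos and 13.1% of 784 without, and in fibroblast-like cells Egr1 was in 40.7% of 27 and 11.4% of 722. Klf2 in endothelial-like cells was at 66.0% and 64.6% and Klf6 at 18.9% and 17.6%. Klf4 there was in 43.4% of cells with Fos and 25.4% without, but in the Sham library alone in 2 of 12 and in 29.1% of 227. Jun was in 41.5% of endothelial-like cells with Fos and 29.0% without, but in the Sham library alone in 1 of 12 and in 22.5% of 227. Jund was in 7.41% and 10.8% of fibroblast-like and in 13.0% and 12.2% of macrophage-like cells. Cells of 1 library are not replicates, and these shares carry no test.

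**Figure D5:**
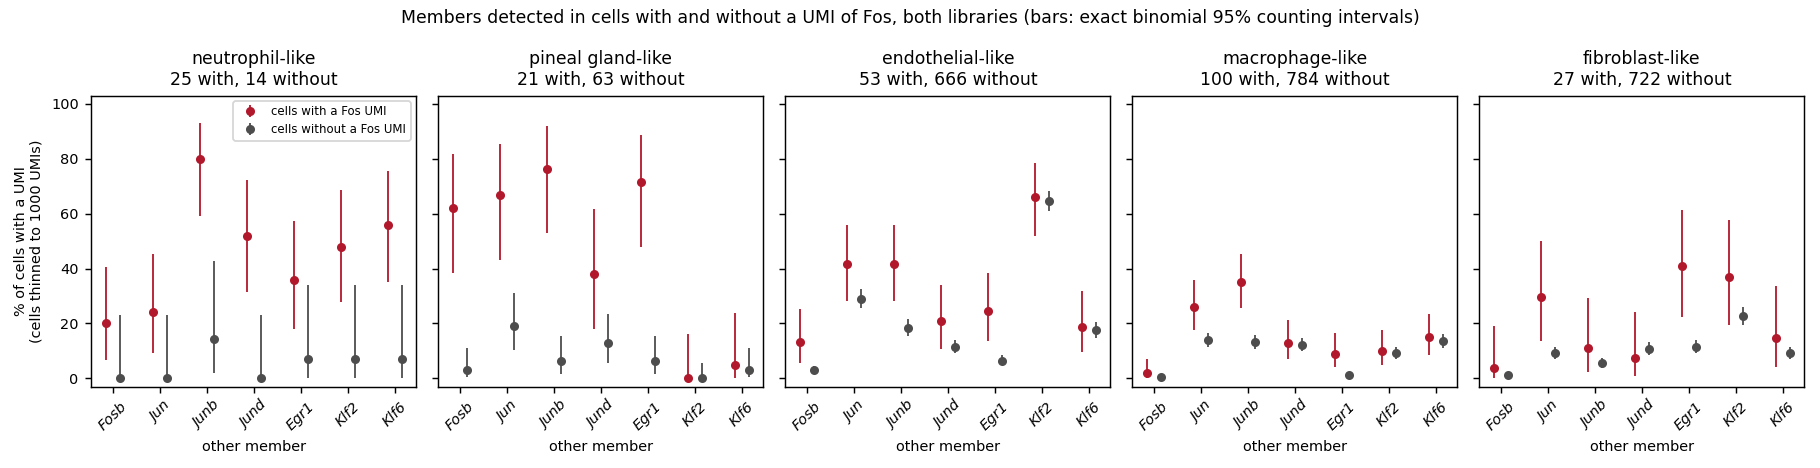
Share of cells (%) with a UMI of another early gene among cells with (red) and without (grey) a Fos UMI in 5 classes, both libraries joined and each cell thinned to 1000 UMIs. Bars are exact binomial 95% intervals. In the mixed pineal gland-like class Junb stands at 76.2% with Fos and 6.35% without, and in endothelial-like cells Klf2 at 66.0% and 64.6%. Atf3 and Klf4 are not drawn.

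Cells with many members were uncommon. At 1000 UMIs, 5 or more of the 10 genes were detected in 2.09% (0.68 to 4.81) of endothelial-like Sham cells and 6.25% (4.26 to 8.80) of TBI cells. The shares were 12.5% and 11.8% in pineal gland-like cells and 20.0% and 37.5% in neutrophil-like cells. In macrophage-like cells they were 0.791% and 0.792%. No member was detected in 54.9% of macrophage-like Sham cells and 43.4% of TBI cells.

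Likeness between genes was measured over 34 sums, those of the 17 classes with at least 20 cells in each library, which leaves out neutrophil-like and gamma-delta or Th17-like cells. The gene most like Fos was Cebpd, a C/EBP family factor gene (Pearson correlation of log2(CPM + 10), 0.815), and the gene most like Junb was Ier2, an early response gene itself (0.749). Rasgrp2, a guanine nucleotide exchange factor gene, was most like Klf2 (0.819), Cd300lg, an endothelial surface receptor gene, most like Klf4 (0.847), and Tspan7 most like Jun (0.824). Among the members, the correlation of Fos was 0.776 with Jun, 0.738 with Fosb and 0.710 with Egr1, and that of Klf2 with Klf4 was 0.475. The points share libraries, depth and cell types, so these values are descriptions. With a pseudocount of 1 CPM or with rank correlation, the gene lists changed, and of these 5 genes Ier2 and Rasgrp2 stayed among the 3 most alike under both.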

How the data were processed

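The authors deposited, for each library, a matrix of UMI counts per gene and barcode, aligned to mm10 and counted with Cell Ranger (version 1.3.1 in the methods, 2.1.1 in the submitters' processing notes, 3.1.0 in the matrix header), with 5 mice pooled per library. Cell filters were applied here, not in the deposited files.

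Cells with 150 to 5000 genes, at most 20% mitochondrial and at most 5% hemoglobin UMIs were kept. Counts were log-normalised, the 2000 most variable genes (members and other early genes left out) were reduced to 20 principal components, and a graph of 20 neighbours was clustered by Leiden at resolution 0.8 (leidenalg 0.10.2, igraph 0.11.9, scikit-learn 1.9.0, scipy 1.17.1, numpy 2.4.6, pandas 2.3.3). Clusters were named by the class with the largest share of its markers at least 4-fold above other cells and detected in at least 10% of cells, with at least 3. This rule was chosen after the clusters were seen. Predicted doublets were kept.

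UMIs were summed per class and library. Ratios add 0.5 to each sum, and ratios were counted where both libraries together held at least 20 UMIs. Intervals are exact Poisson (levels) or binomial (ratios and shares) at 95%. A gene at 0 in one library is bounded with 3 counts. Scripts were tested on simulated data. The members and gene lists were chosen with earlier results of these data known. All 10 members are named, and of each list up to 3 genes per class with the largest ratios among those with at least 100 UMIs. The 3 genes most like a member were sought over genes with at least 500 UMIs, which left out Fosb. The first of these is named for Fos, Jun, Junb, Klf2 and Klf4.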

Additional observations from a re-analysis of the deposited data

Results flagged for a closer look

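Several genes had opposite ratios of TBI over Sham in different classes, and the difference between classes was not tested. The classes named held the highest and lowest ratios of a gene on at least 20 UMIs, so they were picked by their values. The log2 ratio of Jun was 1.68 (0.17 to 4.24) in choroid plexus-like cells, on 3 Sham and 26 TBI UMIs. It was -1.41 (-2.85 to -0.21) in migratory dendritic-like cells, on 20 and 8 UMIs. The ratio of Junb was 1.10 in the mixed pineal gland-like class and -0.72 in proliferating cells. For Jund it was 1.13 in plasmacytoid dendritic-like cells, on 8 and 31 UMIs, and -1.11 in migratory dendritic-like cells, on 22 and 11. Egr1 was at 1.24 in B cell-like and -3.26 in NK-like cells, where 19 of the 26 Sham UMIs came from 1 cell. Klf2 was at 1.13 in proliferating and -3.55 in pericyte-like cells, where 41 of the 42 Sham UMIs came from 1 cell. In cells thinned to 1000 UMIs the ratio of Jund in plasmacytoid dendritic-like cells changed sign (-1.14, on 6 UMIs in all). So did those of Junb (0.31, on 10) and Klf2 (-0.00292, on 14) in proliferating cells.

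Barcodes dominated by hemoglobin were left out of the filtered cells. They also held UMIs of the members above the limit that a count of 0 allows. In Sham these were 109 UMIs of Jund and 8 of Klf2. In TBI they were 43 of Jund, 9 of Jun, 8 of Klf2, 6 of Junb and 4 of Klf6.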

How the results depend on the processing

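No paired analysis was possible because each group has 1 library, and no replicate could be left out. The number of members higher in TBI in each of the 3 classes largest over both libraries stayed within 1.5 times its value under every alternative run. For counts out of 9 or 10 genes this limit could hardly be passed, so no stability is read from it. Beside the 12 pairs at least 2-fold higher and 9 at least 2-fold lower, a recount in thinned cells gave 6 and 4 of 67 pairs. The shares of all gene and class pairs were then 4.88% and 3.83%. The thinned pairs were not all among the first. Fos (1.03) and Junb (1.02) in endothelial-like and Egr1 (1.05) and Klf4 (1.33) in fibroblast-like cells were past 2-fold when thinned. Fos (0.19) and Junb (0.48) in fibroblast-like cells no longer were. The Sham side of these ratios often rested on few thinned cells. Fos was found in 12 endothelial-like and 5 fibroblast-like Sham cells and Egr1 in 7 fibroblast-like ones. Klf4 was in 2 of the 81 Sham fibroblast-like cells without Fos and 0 of the 5 with it. Their place beside 2-fold is therefore uncertain. Each alternative below is likewise a recount. No minimum of UMIs gave 33 and 22 of 190, beside 15.3% and 16% of all pairs with a UMI. The 190 also hold pairs with no UMI in either library, so the shares are not on the same basis. Among the 22 were such pairs, lower only through the count added to each sum. They were Fosb in choroid plexus-like, Klf4 in pineal gland-like and Fos, Egr1 and Atf3 in gamma-delta or Th17-like cells. A 1.5-fold limit gave 19 and 18 of 116, against 11.1% and 9.75%. Means over cells gave 18 and 4 of 116, against 7.26% and 5.42%. Under these means 17 of the 116 ratios moved outside their main counting interval. Leaving out the richest cell of each library, an alternative chosen after seeing the data, gave 16 and 2 of 100, against 4.99% and 1.87%. It takes a larger part from the library with fewer cells of a class, mostly Sham, and so tilts ratios upward. Under thinning, 69 of the 116 ratios stayed inside their main counting interval, 41 moved outside it and 6 others turned sign. Turned ratios are listed only for pairs whose main interval left out no difference. Thinning turned Jun in T cell-like (-0.11, on 8 UMIs in all) and pineal gland-like cells (-0.41, on 102) and Klf4 in dendritic-like cells (0.26, on 22). It also turned Jund in plasmacytoid dendritic-like cells (-1.14, on 6) and, in proliferating cells, Junb (0.31, on 10) and Klf2 (-0.00292, on 14). Jund (0.30) and Klf6 (0.19) in endothelial-like cells, with intervals that included no difference, became positive when thinned. A limit of 10% mitochondrial UMIs turned Jun in pineal gland-like cells (-0.11, on 3 UMIs in all), and leaving out the richest cell turned Klf2 in pericyte-like cells (0.29, on 9 UMIs). The cause was not tested. The class highest in the main order fell to rank 6 for Jund and 2 for Atf3 in TBI alone, to 2 for Egr1 in Sham alone, and with means over cells to 2 for Egr1, 3 for Atf3 and 2 for Klf6. Depth limits the pairs under 20 UMIs, which were not counted, and 116 of 190 reached that number.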

Other observations

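Over all filtered cells, without regard to class, Egr1 was 39.3 CPM in Sham and 77.2 CPM in TBI, a log2 ratio of 0.97 (0.79 to 1.16), and Fos 63.4 and 110 CPM, a ratio of 0.80 (0.65 to 0.95). Weighted over the 27 clusters, which removes differences in their shares, the ratios were 0.33 for Egr1 and 0.39 for Fos. Fosb was at 0.59 over all cells and 0.02 weighted, and Jun at 0.50 and 0.24. Klf2 was at -0.31 over all cells and -0.13 weighted, and Jund at -0.24 and -0.07. Junb was at 0.08 and 0.20, Atf3 at 0.51 and 0.54, Klf4 at 0.06 and -0.22 and Klf6 at -0.00 and -0.03.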
